A study of Mus musculus with 6 samples.

Results

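The Tnfrsf22, Tnfrsf23 and Tnfrsf26 genes form a cluster of TNF receptor genes on distal mouse chromosome 7. They were examined here together with 6 neighbours, Cd81, Tssc4, Cdkn1c, Phlda2, Nap1l4 and Osbpl5, so that 9 of the 23282 genes listed for each library are described. The 9 genes were selected by name and position, with earlier AMPK KO and WT values of these same libraries in view, above all the absence of Tnfrsf26 reads in AMPK KO. Their differences between the groups, and the count of them that passed in the fit over all genes, are therefore given as a description and are no independent evidence. RNA from CD4 T cells of C57BL/6 mice was sequenced as QuantSeq libraries, which count the 3′ ends of transcripts, in 3 WT and 3 AMPK KO samples. WT mice carried floxed Prkaa1 alleles (Prkaa1 fl/fl) without Cre, and AMPK KO mice carried the same alleles with CD4Cre, which deletes Prkaa1, a catalytic subunit of the energy sensor AMPK, in T cells from their CD4-expressing stage on. Spleens and lymph nodes were the source in both groups. After 1 h of rest, antibodies to CD3 and CD28 were added to the cells, for 24 h by the sample labels and for 6 h by the study's methods. The methods give 2 µg/mL of each antibody, female mice of 6 to 8 weeks, and purification with microbeads or a cell sorter. The study describes the samples of a group as biologically independent, and whether each came from a separate mouse is not given.

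TNF receptors of the cluster bind ligands of the TNF family at the cell surface. The Tnfrsf22 and Tnfrsf23 proteins bind TRAIL (Tnfsf10), a ligand that can start apoptosis, but lack the intracellular death domain and so act as decoys, and Tnfrsf26 is a close relative without a well-defined ligand. The neighbours lie in or beside an imprinted domain, in which one parental copy of a gene is silenced. Cdkn1c and Phlda2 are expressed from the maternal copy in many tissues, and the long RNA Kcnq1ot1 is transcribed from the paternal copy and silences genes around it. Several outer genes of the domain, Cd81, Tssc4, Nap1l4 and Osbpl5 among them, are known to be imprinted mainly in the placenta.

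All 9 genes are protein coding. In GENCODE models of the GRCm38 genome, the build named in the submitters' processing notes as mm10, the order along the chromosome starts with Cd81 (chr7:143052739-143067934, forward strand) and Tssc4 (chr7:143069249-143071093, forward strand). Next come Cdkn1c (chr7:143458339-143461050), Phlda2 (chr7:143501545-143503150) and Nap1l4 (chr7:143513579-143549106), all on the reverse strand. The cluster follows on the reverse strand as Tnfrsf26 (chr7:143607659-143628722), Tnfrsf22 (chr7:143634806-143649661) and Tnfrsf23 (chr7:143665809-143685872). Osbpl5 (chr7:143688762-143756985, reverse strand) starts the far side, 2889 bases from Tnfrsf23. The gaps within the cluster are 6083 bases between Tnfrsf26 and Tnfrsf22 and 16147 bases between Tnfrsf22 and Tnfrsf23. An antisense gene, E230032D23Rik, overlaps all 3 receptor genes, R74862 lies antisense to Cd81, and Trpm5 lies antisense to Tssc4. The strand setting of the counting is not given in the sources used here, so whether reads of such pairs were kept apart is not known.

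Promoter windows of 300 bases from RefSeq (GRCm38.p6) matched 5 of the 9 genes by symbol: Tnfrsf23, Osbpl5, Phlda2, Cd81 and Tssc4. Tnfrsf26, Tnfrsf22, Nap1l4 and Cdkn1c were not matched. Windows are shown for Tnfrsf23, the 1 gene of the cluster with a match, for its nearest neighbour Osbpl5 (the first of its 3 windows), and for Cd81 at the other end. Each is written 5′ to 3′ in the direction of the gene, and capitals mark 3 motifs that were searched on both strands. The first is the GC box, which is spelled GGGCGG. The other two, the CCAAT box and the box with the letters TATAAA, are searched as their names are spelled.
Tnfrsf23, chr7:143685826-143686125, reverse strand: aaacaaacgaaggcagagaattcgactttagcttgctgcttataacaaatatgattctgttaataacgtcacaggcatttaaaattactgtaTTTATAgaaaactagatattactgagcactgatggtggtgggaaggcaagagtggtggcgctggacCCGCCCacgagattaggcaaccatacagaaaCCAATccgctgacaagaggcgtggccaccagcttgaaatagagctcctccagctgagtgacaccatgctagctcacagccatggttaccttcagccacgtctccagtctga
Osbpl5, chr7:143756959-143757258, reverse strand: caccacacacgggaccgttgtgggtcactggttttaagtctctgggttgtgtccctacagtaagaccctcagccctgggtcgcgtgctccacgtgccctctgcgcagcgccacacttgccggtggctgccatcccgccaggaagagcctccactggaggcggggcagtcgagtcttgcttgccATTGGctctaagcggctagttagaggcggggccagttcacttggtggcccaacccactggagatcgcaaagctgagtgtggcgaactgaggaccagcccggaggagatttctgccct
Cd81, chr7:143052500-143052799, forward strand: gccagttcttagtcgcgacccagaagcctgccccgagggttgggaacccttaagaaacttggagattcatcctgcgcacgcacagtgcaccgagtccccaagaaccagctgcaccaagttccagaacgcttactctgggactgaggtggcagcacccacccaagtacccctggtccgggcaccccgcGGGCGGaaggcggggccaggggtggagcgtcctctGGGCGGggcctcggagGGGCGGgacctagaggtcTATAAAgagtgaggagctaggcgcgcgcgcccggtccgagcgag
The Tnfrsf23 window holds 1 GC box, 1 CCAAT box and 1 TATAAA, the Osbpl5 window shown 1 CCAAT box, and the Cd81 window 3 GC boxes and 1 TATAAA. The other Osbpl5 windows differ from the one shown: chr7:143741914-143742213 holds none of the 3 motifs and 1 pair of C followed by G, and chr7:143740311-143740610 holds 3 GC boxes and 21 such pairs. Of all 32851 RefSeq promoter windows of this length, 35.7% hold a GC box, 37.4% a CCAAT box and 13.6% the letters TATAAA. Pairs of C followed by G number 9 in the Tnfrsf23 window, 16 in the Osbpl5 window shown and 23 in the Cd81 window, beside a median of 7 over all windows. GC content is 46.3% for Tnfrsf23, 62.0% for the Osbpl5 window shown and 65.7% for Cd81, with a median of 52.7% over all windows.

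The libraries held 9575096 to 10168121 reads on genes in WT and 10515155 to 11185360 in AMPK KO, and the ribosomal precursor Rn45s took 20.7% to 24.9% of them in WT and 8.48% to 10.8% in AMPK KO. Prkaa1 was 4.64, 5.24 and 4.86 on the log2 scale in WT replicates 1 to 3 and 4.08, 4.72 and 4.67 in AMPK KO, a difference of -0.43 (SE 0.25) with overlapping groups and a limma adjusted p of 0.36. Where the 3′ tags lie relative to the deleted part is not given in the sources used here. A tag outside that part would not show the deletion. Prkaa1 therefore does not check the labels here, and the cause of its remaining reads was not tested. Prkaa2 was listed at 0 in all 6 libraries. The libraries did not match a purely female origin. Y-linked Ddx3y was 8.44 to 8.53 in WT and 6.93 to 7.28 in AMPK KO, while Xist was 0.93 to 2.16 in WT and 7.55 to 7.92 in AMPK KO. These sex-linked values moved with genotype in all 6 libraries, and genotype and sex cannot be told apart in any difference below.

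Tnfrsf26 was read in every WT library and in no AMPK KO library. The WT replicates held 273, 299 and 334 reads of Tnfrsf26, and the AMPK KO replicates held 0, 0 and 0. On the deposited log2(normalized CPM + 1) scale the WT values were 4.94, 4.95 and 5.28 and the AMPK KO values 0, so the groups lay far apart and no library fell between them. The mean in WT was 32.4 ± 4.61 CPM (SD, n = 3). A count of 0 allows up to 3 reads per library, a mean floor of 0.262 CPM in AMPK KO. The lowest WT library was 106 times the highest floor of an AMPK KO library. By this floor, which covers counting error only, the level was at least 106-fold lower in AMPK KO than in WT. The log2 difference was -5.05 (SE 0.35), the lowest of all 11279 genes tested, and would be -4.72 with AMPK KO at the mean floor. Tnfrsf26 passed the filter, a mean log2 value of at least 1 over the 6 samples, through its WT libraries alone, so its groups had to differ. In bulk RNA, fewer cells that express a gene and less RNA per cell cannot be told apart.

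Tnfrsf22, the first of the decoy receptors, was low throughout. WT held 22, 22 and 21 reads of Tnfrsf22 and AMPK KO held 2, 2 and 23. The log2 values were 1.76, 1.68 and 1.75 in WT and 0.225, 0.246 and 1.55 in AMPK KO. AMPK KO replicate 3 was thus close to WT, while the other two AMPK KO libraries were near 0, although the groups still did not overlap. The log2 difference was -1.06 (SE 0.48), and it ranged from -1.50 without AMPK KO replicate 3 to -0.83 without AMPK KO replicate 1. From pooled reads at equal depth, 27 in AMPK KO and 65 in WT, Tnfrsf22 was 2.96-fold lower in AMPK KO (95% exact counting interval 1.86 to 4.82). Without AMPK KO replicate 3, which held 23 of the 27 reads, it was 13.1-fold lower (4.87 to 49.5). The pooled fold thus depended on that 1 library. These intervals cover counting error only and leave out the spread between libraries. Reads were not collapsed by molecular identifiers as far as the sources used here say.

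Tnfrsf23, the other decoy receptor, was near the limit of detection and did not pass the filter, with a mean log2 value of 0.58. WT held 3, 20 and 12 reads of Tnfrsf23 and AMPK KO held 1, 1 and 0. Its log2 values were 0.407, 1.585 and 1.237 in WT and 0.117, 0.128 and 0 in AMPK KO. Each AMPK KO library was below each WT library, but WT replicate 1 was nearer to AMPK KO than to the other WT libraries. Over the pooled 2 and 35 reads Tnfrsf23 was 21.5-fold lower in AMPK KO, with a 95% exact counting interval from 5.53 to 185, which again covers counting error only and not the spread of 3 to 20 reads among the WT libraries. The log2 difference of -0.99 is smaller than the ratio of reads because adding 1 to each value compresses the differences of low genes.

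Reads of the decoy genes could in part have been assigned to the wrong copy. The longest run of identical bases between annotated transcripts of Tnfrsf22 and Tnfrsf23 was 306 bases, and 138 bases when only the last 500 bases of each transcript were compared. Between Tnfrsf26 and Tnfrsf22 the longest run was 18 bases, and between Tnfrsf26 and Tnfrsf23 it was 16 bases. Summed, Tnfrsf22 and Tnfrsf23 gave log2 values of 1.89, 2.38 and 2.24 in WT and 0.33, 0.35 and 1.55 in AMPK KO. The difference of the sum was -1.43 (SE 0.46).

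**Figure D1:**
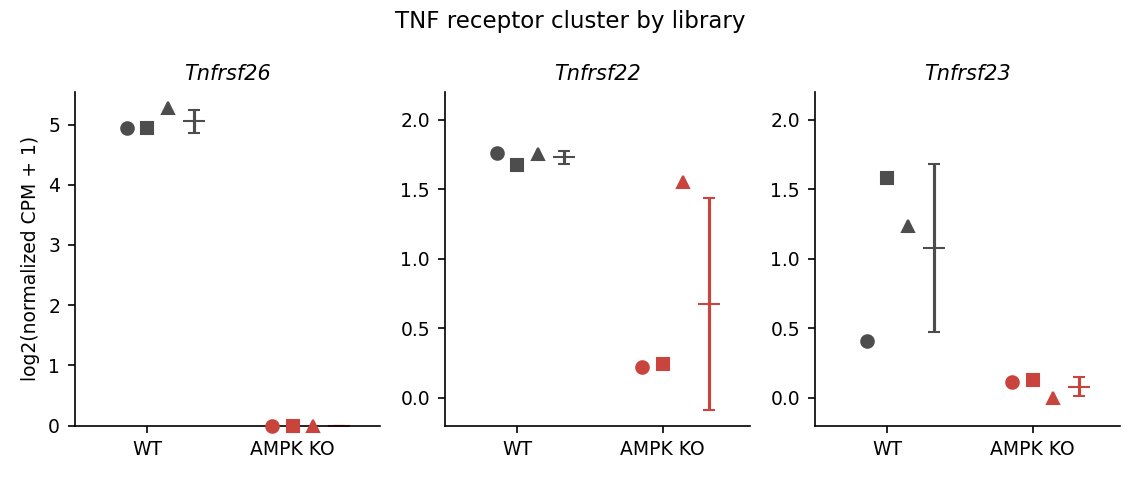
Values of Tnfrsf26, Tnfrsf22 and Tnfrsf23 on the log2(normalized CPM + 1) scale in the 3 WT libraries (grey) and the 3 AMPK KO libraries (red), with circle, square and triangle for replicates 1, 2 and 3 and the mean ± SD beside them; the first panel has its own axis range. Tnfrsf26 is at 0 in AMPK KO, and for Tnfrsf22 replicate 3 of AMPK KO, at 1.55, stands near the WT libraries.

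None of the neighbours was read in one group and absent from the other. Cd81, a tetraspanin that organizes signalling complexes at the membrane, was higher in each AMPK KO library than in WT. Its log2 values were 5.20, 5.41 and 5.23 in WT and 6.15, 6.20 and 5.96 in AMPK KO, so that the groups did not overlap. The log2 difference of Cd81 was 0.82 (SE 0.18), from 37.9 ± 3.17 CPM in WT to 67.8 ± 6.02 CPM in AMPK KO (SD, n = 3 each). It was between 0.76 and 0.90 under all 13 alternatives run.

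Markers of other cells moved beside Cd81. The summed level of 12 macrophage and monocyte markers was 453 to 514 CPM in WT and 866 to 1585 CPM in AMPK KO, and 7 of the 11 tested, among them Vcam1, C1qc and C1qa, passed the test as higher. The summed level of 7 plasma cell markers was 197 to 247 CPM in WT and 511 to 545 CPM in AMPK KO. Of the 6 tested, 1 passed as higher, Jchain, the joining chain of secreted antibodies, with a log2 difference of 2.60 (SE 0.14) that passed in all 13 alternatives. The summed level of 13 T cell markers was 4043 to 4323 CPM in WT and 3186 to 3701 CPM in AMPK KO, with 4 of 13 lower (Cd3g, Cd3e, Il7r and Cd28) and Thy1 higher. Of these 5 T cell calls 0 were left without WT replicate 1, only Cd3g passed without WT replicate 3 or AMPK KO replicate 1, and 3 passed without AMPK KO replicate 3, while 5 to 9 macrophage and monocyte markers passed without any 1 library. The 10 B cell markers summed to 296 to 314 CPM in WT and 294 to 337 CPM in AMPK KO, and 0 of the 9 tested passed, with 1 at an unadjusted p under 0.05 and 0 with limma voom. The 2 CD8 T cell markers summed to 231 to 305 CPM in WT and 321 to 376 CPM in AMPK KO, without overlap, and 0 passed. Over all genes tested, 2.54% passed as higher and 3.10% as lower, and 21.3% had an unadjusted p under 0.05. None of these lists had a marker at 0 in all libraries. Their part in the Cd81 difference, or in that of any other gene here, was not tested.

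Nap1l4, a histone chaperone of the NAP1 family, was covered by 2078 to 2718 reads per WT library and by 1947 to 2075 per AMPK KO library. Its log2 values were 8.06, 7.71 and 8.27 in WT and 7.37, 7.54 and 7.46 in AMPK KO. The AMPK KO libraries all lay below WT, although AMPK KO replicate 2 was only just under WT replicate 2. The log2 difference of Nap1l4 was -0.56 (SE 0.16), and it ranged from -0.71 without WT replicate 2 to -0.43 without WT replicate 3. Nap1l4 did not pass in the fit over all genes, and passed in 5 of 13 alternatives.

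For the other neighbours the groups overlapped. Cdkn1c, the cyclin-dependent kinase inhibitor p57, had log2 values of 3.54, 3.32 and 2.83 in WT and 3.82, 3.11 and 3.45 in AMPK KO, a difference of 0.23 (SE 0.33). Osbpl5, a lipid transfer protein of the oxysterol-binding family, had 3.14, 2.17 and 2.10 in WT and 3.49, 2.78 and 2.43 in AMPK KO, a difference of 0.43 (SE 0.41). In each group replicate 1 was the highest for Osbpl5. Tssc4, a spliceosome assembly factor, had 5.12, 4.60 and 4.83 in WT and 4.99, 5.20 and 4.98 in AMPK KO, a difference of 0.21 (SE 0.22). Phlda2, a small protein known for restraining placental growth, was listed at 0 in all 6 libraries and gives no fold.

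**Figure D2:**
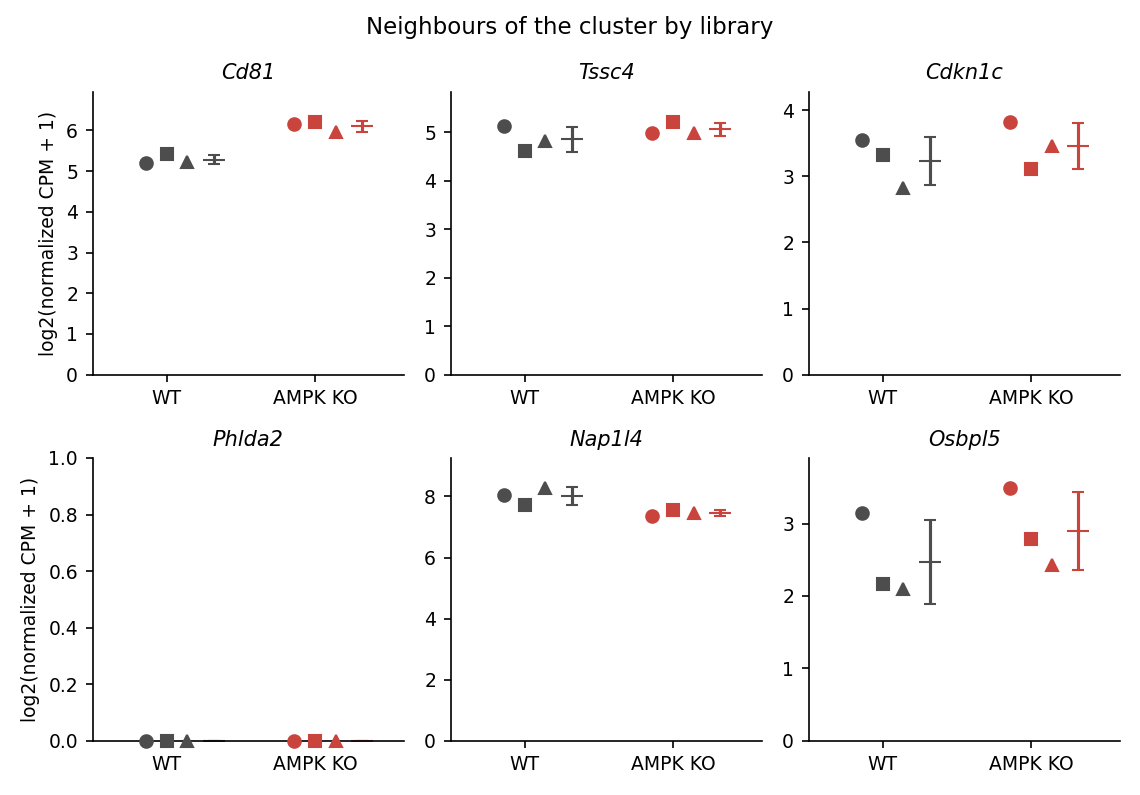
Values of the 6 neighbours on the log2(normalized CPM + 1) scale, each panel with its own axis from 0, in WT (grey) and AMPK KO (red); circle, square and triangle are replicates 1, 2 and 3, and mean ± SD is beside them. Cd81 is higher and Nap1l4 lower in each AMPK KO library, the ranges of Tssc4, Cdkn1c and Osbpl5 overlap, and Phlda2 is at 0.

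Of the 9 genes, 7 passed the filter, and 2 of these 7 passed an adjusted p of 0.05 in the limma fit over all genes, against 5.65% of all genes tested. Cd81 was the 1 that passed as higher, against 2.54% of all genes, and Tnfrsf26 the 1 that passed as lower, against 3.10%. The groups did not overlap for 4 of the 7, Tnfrsf26, Tnfrsf22, Nap1l4 and Cd81, against 25.6% of all genes tested. Tnfrsf22, like Tnfrsf26, reached the filter of 1 through WT, with a mean log2 value of 1.73 there and 0.67 in AMPK KO. Cd81 did not pass without WT replicate 1, WT replicate 3 or AMPK KO replicate 1. Since the genes were chosen on this same contrast, nothing is read from these counts. The median log2 difference was 0.21 over the 7 and 0.02 over all genes tested.

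Other genes of the region were compared by position. The RefSeq gene table holds 42 genes from 10 before Cd81 to 10 after Osbpl5, of which 33 were not among the chosen 9. The files listed 17 of these 33, 6 were at 0 in all libraries, and 6 passed the filter. Of the 6 tested, 1 rose (Kcnq1ot1) and 1 fell (Tspan32), against 2.54% and 3.10% of all genes tested. The median log2 difference of the 6 was 0.15. Tspan32, a tetraspanin of blood cells that lies beyond Cd81, was 4.69, 4.27 and 4.52 in WT and 3.41, 3.26 and 3.13 in AMPK KO. The difference of Tspan32 was -1.23 (SE 0.27, limma adjusted p = 0.017), opposite in sign to that of Cd81. The adjusted p of Tspan32 was 0.10 without WT replicate 1, 0.085 without WT replicate 3 and 0.063 without AMPK KO replicate 1.

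Kcnq1ot1, the long RNA of the imprinted domain, was 7.41, 7.23 and 7.27 in WT and 8.35, 7.51 and 8.47 in AMPK KO. AMPK KO replicate 2 was close to WT and the other AMPK KO libraries stood well above all WT libraries. The difference of Kcnq1ot1 was 0.81 (SE 0.21, limma adjusted p = 0.034). It was 1.11 without AMPK KO replicate 2, and the adjusted p ranged from 0.065 to 0.17 when any of the other 5 libraries was left out. With libraries scaled to the reads outside Rn45s, the adjusted p of Kcnq1ot1 was 0.063.

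The remaining tested genes of the region did not pass. R74862, a noncoding gene antisense to Cd81, was 2.78, 2.49 and 2.31 in WT and 2.07, 1.08 and 1.33 in AMPK KO, a difference of -1.03 (SE 0.41, limma adjusted p = 0.16). Cars, the cysteinyl-tRNA synthetase gene between Nap1l4 and Tnfrsf26, was 4.57, 4.49 and 4.84 in WT and 4.60, 4.63 and 4.54 in AMPK KO. The difference of Cars was -0.04 (SE 0.22, limma adjusted p = 0.94), and its sign turned with the alternatives, from -0.12 to 0.06. On the far side, Nadsyn1, a NAD synthetase, differed by 0.41 (SE 0.42) and Dhcr7, which completes cholesterol synthesis, by 0.34 (SE 0.48), with limma adjusted p of 0.62 and 0.73. Read in order, the tested genes on either side of the cluster, Cars and Osbpl5, had differences of -0.04 and 0.43, beside -5.05 for Tnfrsf26 and -1.06 for Tnfrsf22.

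**Figure D3:**
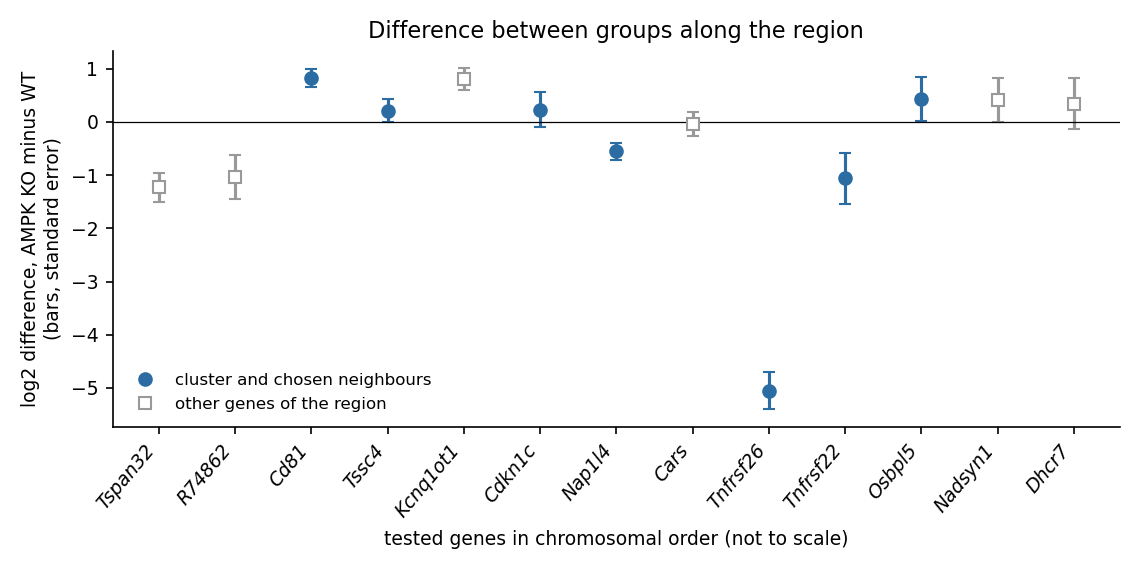
Log2 difference (AMPK KO minus WT) with its standard error for the 13 tested genes of the region in chromosomal order, not to scale; filled circles are the cluster and its chosen neighbours, open squares the other genes, and Tnfrsf23 and Phlda2 are missing because they were below the filter. Tnfrsf26 is at -5.05, and all other genes lie between -1.23 and 0.82.

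The genes whose values followed those of the receptors most closely were listed among 3347 tested genes with an SD of at least 0.5 on the log2 scale. For Tnfrsf26 these were Pydc4 (Pearson r = 0.998), Ms4a6b (0.996), Zfp236 (0.995), Tcf7 (0.993) and Kin (0.993), over the 6 samples. Tcf7, the T cell transcription factor TCF-1, was 5.37, 5.28 and 5.27 in WT and 3.79, 3.54 and 3.60 in AMPK KO. A gene at 0 in one group is matched by any gene with a steady level in each group, so these correlations say little beyond a difference between groups. For Tnfrsf22 they were Cecr2 (0.984), Gm20199 (0.978), Foxo3 (0.964), Gspt2 (0.962) and Primpol (0.960). Foxo3, a FOXO transcription factor, was 1.56, 1.43 and 1.30 in WT and 0.225, 0 and 1.67 in AMPK KO. Replicate 3 of AMPK KO stood with WT, as it did for Tnfrsf22. A listing by correlation selects such a pattern, so the match is no evidence of a link. All these values come from the same 6 libraries, and no p is given.

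The TRAIL pathway around the decoy receptors was measured for 22 genes. Of the 21 tested, 0 passed the limma test, 2 had an unadjusted p under 0.05, against 21.3% of all genes tested, and 0 passed with limma voom on recovered reads. The median log2 difference of the pathway genes was 0.09, beside 0.02 over all genes. The ligand Tnfsf10 (TRAIL) was 2.05, 2.41 and 2.02 in WT and 2.89, 2.57 and 1.59 in AMPK KO, and the death receptor Tnfrsf10b was 4.56, 4.60 and 4.25 in WT and 4.49, 4.08 and 4.76 in AMPK KO. The groups overlapped for both, with differences of 0.19 (SE 0.42) and -0.03 (SE 0.25). Tnfrsf11b, a soluble receptor that also binds TRAIL, was at 0 in all libraries. Fadd, the adaptor of death receptors, differed by -0.64 (SE 0.39, limma adjusted p = 0.37), and Casp8, the caspase it recruits, by -0.26 (SE 0.18, limma adjusted p = 0.46). Xiap, an inhibitor of caspases, was 6.53, 6.34 and 6.71 in WT and 6.06, 5.72 and 6.01 in AMPK KO, a difference of -0.60 (SE 0.17, limma adjusted p = 0.06). The largest difference of the list was in the other direction, for Bid, which carries the death signal to mitochondria. Bid was 2.53, 2.43 and 2.24 in WT and 3.58, 2.72 and 3.79 in AMPK KO, a difference of 0.96 (SE 0.37, limma adjusted p = 0.14) without overlap of the groups. Apaf1, the core of the apoptosome, differed by 0.79 (SE 0.45, limma adjusted p = 0.34) with overlapping groups. Without AMPK KO replicate 2 Bid passed, and without WT replicate 2 Xiap did. These 8 genes were picked for their roles or size of change after the values were seen.

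Among 25 other receptors of the TNF superfamily, 17 were tested, 2 rose and 0 fell, with 4 at an unadjusted p under 0.05. Over all genes tested, 2.54% rose, 3.10% fell and 21.3% had an unadjusted p under 0.05. The median log2 difference of the 17 was 0.18. Tnfrsf9 (4-1BB), a costimulatory receptor of activated T cells, was 6.33, 6.40 and 6.44 in WT and 6.99, 7.45 and 6.89 in AMPK KO, a difference of 0.72 (SE 0.17, limma adjusted p = 0.025). Tnfrsf21, the death receptor DR6, was 0.98, 1.81 and 1.80 in WT and 2.75, 3.41 and 3.30 in AMPK KO, a difference of 1.62 (SE 0.40, limma adjusted p = 0.030). Both were thus higher in AMPK KO, the opposite sign to the receptors of the cluster. Of the receptors below the filter, Tnfrsf19 had the lowest difference and Tnfrsf17 the highest. Tnfrsf19 had 77, 27 and 2 reads in WT and 5, 0 and 0 in AMPK KO, a log2 difference of -1.63. Tnfrsf17 had 3, 6 and 0 reads in WT and 20, 11 and 5 in AMPK KO, a log2 difference of 0.62. The groups overlapped for both, and neither was tested. Without WT replicate 1, WT replicate 3 or AMPK KO replicate 1 in turn, 0 of the receptors passed, and without AMPK KO replicate 3 only Tnfrsf9 did.

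Imprinted genes of other chromosomal domains numbered 44, of which 18 were tested, 3 rose and 0 fell, and 5 had an unadjusted p under 0.05. The shares over all genes tested were 2.54%, 3.10% and 21.3%. The median log2 difference of the 18 was -0.07. The 3 were Ddc, an aromatic amino acid decarboxylase, with a difference of 1.47 (SE 0.39), Plagl1, a zinc finger transcription factor, with 0.77 (SE 0.21), and Zrsr1, a splicing factor, with 0.55 (SE 0.14), at limma adjusted p of 0.039, 0.042 and 0.036. None of the 3 passed without WT replicate 1, WT replicate 3 or AMPK KO replicate 1, and only Plagl1 did without AMPK KO replicate 3.

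Relatives of the neighbours were taken from 5 families, with 42 of 54 genes tested. Of the 42, 4 rose and 1 fell, against 2.54% and 3.10% of all genes tested. An unadjusted p under 0.05 was found for 13 of the 42, against 21.3% of all genes tested. Most of the relatives that passed were tetraspanins and partners of CD81, where 3 of 21 rose, 1 fell, and the median log2 difference was 0.25. Cd63, a tetraspanin of endosomes, differed by 1.36 (SE 0.27, limma adjusted p = 0.010), Cd9 by 1.25 (SE 0.33, limma adjusted p = 0.036) and Tspan4 by 1.73 (SE 0.45, limma adjusted p = 0.036), while the 1 that fell was Tspan32. Of 5 tested CDK inhibitors, Cdkn2a rose by 1.66 (SE 0.46, limma adjusted p = 0.046), with 9, 14 and 0 reads in WT and 65, 50 and 37 in AMPK KO. This call held in only 2 of 12 alternatives, with a robust spread and without WT replicate 2. Of the same family, Cdkn1a and Cdkn1b, the closest relatives of Cdkn1c, differed by 0.37 and 0.74 and did not pass. Cdkn1b did pass without WT replicate 2 and without AMPK KO replicate 2. Of 8 tested oxysterol-binding relatives of Osbpl5, 7 NAP1 and SET relatives of Nap1l4 and 1 relative of Phlda2, 0 passed, with 1, 0 and 1 at an unadjusted p under 0.05 and 0 with limma voom. Without WT replicate 1 or AMPK KO replicate 1, 0 of these relatives passed, without WT replicate 3 only 1 did, and without AMPK KO replicate 3 or replicate 2 the count was 3 or 8.

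**Figure D4:**
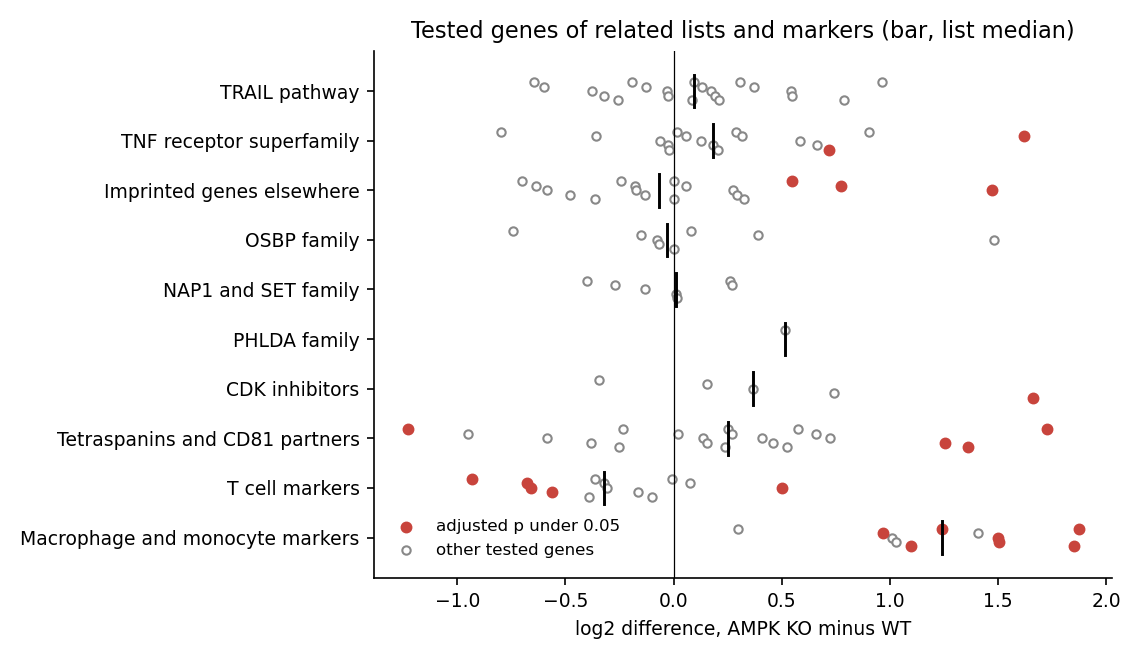
Log2 difference (AMPK KO minus WT) of each tested gene in the related lists and in the T cell and the macrophage and monocyte markers; red points passed a limma adjusted p of 0.05, open points did not, and the black bar is the list median. The TRAIL pathway has 0 red points, and 7 of 11 macrophage and monocyte markers are red and higher in AMPK KO.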

How the data were processed

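The authors deposited 1 table per library with log2 values per gene symbol, described in the study as TMM and CPM normalized, to which 1 had been added before the logarithm. The submitters' processing notes name Bowtie2, bedtools and mm10, without versions; annotation and strand setting are not given in the sources used here. Each library's values fell on whole multiples of 1 step within a tolerance of 0.1 reads for 100% of values up to 100 reads, so whole reads were recovered for counts, floors and limma voom. Levels in CPM are 2 to the log2 value, minus 1. The 9 genes, the gene lists and the tests were chosen with earlier results of these data known.

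AMPK KO was compared with WT by limma 3.58.1 in R 4.3.3 (lmFit and eBayes with trend, two-sided, Benjamini-Hochberg adjustment) over 11279 genes with a mean log2 of at least 1, at an adjusted p of 0.05. SE is the limma standard error. The fit was tested on simulated data. Non-overlap means that all 3 values of one group exceed all 3 of the other. Named genes were the 9 genes, every tested gene of the region, Prkaa1 and sex-linked genes, the genes past the threshold in other lists (at most 5 per list, of smallest p), and the 5 best correlated genes. The TRAIL pathway genes, Tnfrsf17, Tnfrsf19, Cdkn1a, Cdkn1b and Ppm1n fall outside this rule and were chosen after their values were seen. Each alternative changed 1 choice. No columns were left out. The other marker lists gave these counts of tested genes that rose or fell: dendritic cell 0 of 7, neutrophil 2 of 7 (Ngp and Ltf, lower), NK cell 1 of 5 (Klrk1, higher), erythroid 0 of 6, platelet 1 of 3 (Pf4, higher), and stromal and endothelial 0 of 2. Without WT replicate 1, WT replicate 3 or AMPK KO replicate 1, and with the replicate block, Ltf, Klrk1 and Pf4 did not pass; Ltf also did not pass without WT replicate 2, nor Pf4 without AMPK KO replicate 3. Ngp passed in all 13 alternatives. In the CD8 T cell, dendritic cell, erythroid, and stromal and endothelial lists 2, 1, 0 and 1 genes had an unadjusted limma p under 0.05, and 0 passed with limma voom.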

Additional observations from a re-analysis of the deposited data

How the results depend on the processing

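Tnfrsf22 and Tnfrsf23 rest on 65 and 35 WT reads in all, and 3 libraries per group leave single libraries in control of many calls. Of all genes tested, 637 passed (287 higher, 350 lower, 45.1% higher); scaling to reads outside Rn45s gave 718 with 32.2% higher and moved the median by -0.06. The count was 308 without a filter and 102 with the replicate block, and leaving out 1 library gave 127 (WT replicate 1), 133 (WT replicate 3), 173 (AMPK KO replicate 1), 459 (AMPK KO replicate 3), 730 (WT replicate 2) or 1243 (AMPK KO replicate 2). Of the 9 genes, 2 passed; the replicate block left 1 (Tnfrsf26), and single libraries left out gave 1 to 3. Scaling outside Rn45s and a robust spread gave 3, Nap1l4 included. Since these genes were chosen on this contrast, and Tnfrsf26 passed the filter through WT alone, their counts are no sign of stability. Of the region, 2 passed; 1 did with scaling outside Rn45s or without a filter and 0 with the replicate block, and leaving out libraries gave 0 to 2. Of the TRAIL pathway, 0 passed; 1 (Xiap) did with scaling outside Rn45s, with a mean log2 of at least 3 and with a robust spread, and leaving out libraries gave 0 to 1 (Xiap, lower, without WT replicate 2, and Bid, higher, without AMPK KO replicate 2). Of the TNF receptor superfamily, 2 passed; 1 did with limma voom or a mean log2 of at least 3, 0 without a filter or with the replicate block, and 0 to 3 without single libraries. Of the imprinted genes elsewhere, 3 passed; 1 did with scaling outside Rn45s or limma voom, 0 without a filter or with the replicate block, and 0 to 2 without single libraries. Of the family relatives, 5 passed; 3 did with quantile normalization, limma voom, no filter or a mean log2 of at least 3, 0 with the replicate block, and 0 to 8 without single libraries. Prkaa1 remained below the threshold in 13 of 13 alternatives, with a log2 difference of -0.56 to -0.22 and an adjusted p of 0.21 to 0.76. With the replicate block 0 T cell markers and 5 macrophage and monocyte markers passed. The log2 differences of the 7 genes above the filter kept their sign in every alternative that tested them. That of Tnfrsf22 ranged from -2.34 with limma voom to -0.83 without AMPK KO replicate 1, and that of Tnfrsf26 was -9.53 with limma voom, -5.34 with scaling outside Rn45s and -5.11 to -4.94 without single libraries; for a gene at 0 in 1 group such fitted values depend on the prior count and are no bound. The cause of these changes was not tested. Libraries with the same replicate number did not deviate together (correlations -0.08, -0.32 and -0.16), no WT library correlated best with its own number, and the pairing is not given by the labels, so the block is an alternative only.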

Other observations

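Genes read in every library of one group and in none of the other were counted over all 23282 listed genes, after the pattern of Tnfrsf26 had been seen. With at least 20 reads in each WT library and 0 in each AMPK KO library there was 1 gene, Tnfrsf26, and it was also the only one at a minimum of 100 reads. In the opposite direction there was 1 gene at 20 reads, Ppm1n, also on chromosome 7, with 24, 29 and 21 reads in AMPK KO and 0 in WT. At a minimum of 10 reads 7 genes were at 0 in AMPK KO, Tnfrsf26 included, and 10 genes were at 0 in WT.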
